A study of Mus musculus with 2 samples.

Results

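The 39 mouse Hox genes were examined in the RNA of sensory neurons isolated from dorsal root ganglia (DRGs), as they record where along the body axis a cell arose. Members were taken by symbol (Hox, a cluster letter from a to d, and a paralogue number), and the transcript abundances, in units of TPM, of all rows of a gene were added. They made up 39 of 24411 genes and 45 of 35034 transcript rows. TPM is a read number divided by transcript length and scaled to the same total in each library, so levels could be set beside each other between genes.

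Hox genes encode homeodomain transcription factors and lie in 4 clusters, in which the order of the genes along the chromosome follows the order of their expression along the embryo. Genes of low paralogue number are expressed up to the hindbrain, whereas genes of high number are restricted to the trunk, the lumbosacral region and the tail. Neurons that form in the trunk keep part of this pattern in adult life, and in the DRG the paralogues around the thoracic and lumbar boundary help to assign segmental identity.

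The study asked whether sensory neurons of immunized mice hold the machinery to make antibodies, and RNA-seq served to describe the neuron preparations rather than to compare them. There were 2 libraries, each from the pooled DRG neurons of 10 male C57BL/6 mice (C57BL/6J in the methods) aged 6 to 8 weeks. Mice of the alum-injected pool received the adjuvant alone intraperitoneally on days 0 and 14, and mice of the alum + KLH-immunized pool received alum with 100 µg of keyhole limpet haemocyanin, a foreign protein antigen, on the same days. Ganglia were collected on day 28 from thoracic and lumbar levels, digested, passed over a protein cushion to enrich neurons, and depleted of B cells with beads. The control library is titled both naïve and alum alone, and is called alum-injected here, as in the methods of the study. All mice shared the strain, the sex, the adjuvant and the schedule.

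With 1 library per group there was no replicate error, and no difference between the pools could be tested. The number of thoracic and lumbar ganglia in each pool is not given in the sources used here, so ganglion level and treatment cannot be told apart in any difference below. Equally, fewer cells of a type and less RNA per cell cannot be told apart in bulk RNA. Of the fixed sensory neuron markers 8 of 8 exceeded 3 TPM in each pool, the level above which the study counted a transcript as present. Isl1, a sensory neuron homeodomain factor, stood at 145.2 TPM with alum alone and 152.7 TPM with KLH, and Pou4f1, its POU-domain partner, at 278.0 and 290.5 TPM. Values are given throughout in this order, the alum-injected pool first.

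Hox transcripts were a small fraction of the RNA, and most of it came from few genes. They summed to 399.5 and 418.2 TPM, which is 0.0400% and 0.0418% of all transcripts. In each pool 25 of the 39 Hox genes exceeded 3 TPM, where 46.9% and 46.3% of all genes did. In at least one pool 26 Hox genes did so. Hoxa9, Hoxd8, Hoxd1 and Hoxa10 together held 58.5% and 59.8% of all Hox TPM. The median of the detected Hox genes was 7.47 and 7.33 TPM, against 24.9 and 25.2 TPM for all detected genes.

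The level was not graded smoothly by paralogue number. Hoxa9, a posterior gene active at trunk and lumbar levels, was the highest at 72.4 and 82.2 TPM. Hoxd8, a central gene of the trunk, followed at 71.9 and 76.0 TPM. Hoxd1 came next at 52.2 and 54.2 TPM, and it is an anterior paralogue known for its part in the development of pain-sensing neurons in the mouse rather than for an axial position. Hoxa10, associated with the lumbar region, was at 37.4 and 37.8 TPM.

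Of the remaining detected genes, 5 exceeded 10 TPM in at least one pool and 17 stayed below 10 TPM in each. Hoxb7 was at 22.3 and 19.3 TPM, Hoxb9 at 16.4 and 16.1 TPM and Hoxd9 at 12.2 TPM in each pool. Hoxc10, expressed in lumbar segments, was at 9.40 and 10.2 TPM, and Hoxc8, a thoracic gene, at 7.47 and 10.1 TPM. All 3 group 10 genes and all 4 group 9 genes were thus above the detection level, although Hoxc9, the group 9 gene best known from thoracic motor neurons, was at only 3.98 TPM in each pool.

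The genes between 3 and 10 TPM were drawn from every cluster. In the Hoxa cluster they included Hoxa2 (3.18 and 3.02 TPM), Hoxa4 (3.83 and 2.96 TPM), Hoxa5 (9.11 and 8.04 TPM) and Hoxa7 (5.54 and 5.33 TPM). In the Hoxb cluster they were Hoxb2 (4.38 and 5.16 TPM), Hoxb3 (6.01 and 5.34 TPM), Hoxb4 (4.37 and 4.0 TPM), Hoxb5 (8.91 and 7.33 TPM), Hoxb6 (4.19 and 4.13 TPM) and Hoxb8 (6.27 and 6.38 TPM). Hoxa4 was the only gene that exceeded 3 TPM in the alum-injected pool alone, and Hoxd11 the only one that did so in the alum + KLH-immunized pool alone. In the Hoxc cluster Hoxc4 (7.47 and 6.81 TPM) and Hoxc6 (8.81 and 7.94 TPM) joined Hoxc9, and in the Hoxd cluster Hoxd4 (4.11 and 4.45 TPM), Hoxd10 (5.02 and 9.87 TPM) and Hoxd11 (1.71 and 3.64 TPM).

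A further 13 genes were at or below 3 TPM in each pool. Of these, 5 were listed at 0 in each pool, namely Hoxa13, Hoxb13, Hoxc12, Hoxc13 and Hoxd13. The other 8, which were Hoxa3, Hoxa6, Hoxa11, Hoxb1, Hoxc5, Hoxc11, Hoxd3 and Hoxd12, ranged up to 2.33 TPM, with 0.0217 TPM as the lowest value above 0. The 6 genes of paralogue groups 12 and 13, whose expression domains lie in the sacral region, the tail and the distal limb, therefore gave at most 0.0217 TPM. Hoxa11 and Hoxc11 stood at 0.0281 and 0 TPM and at 0.389 and 1.01 TPM, so within group 11 Hoxd11 alone passed the detection level, and in a single pool. Neither a level of 0 nor a level below 3 TPM can be given a counting interval, since the values carry no read numbers.

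**Figure D1:**
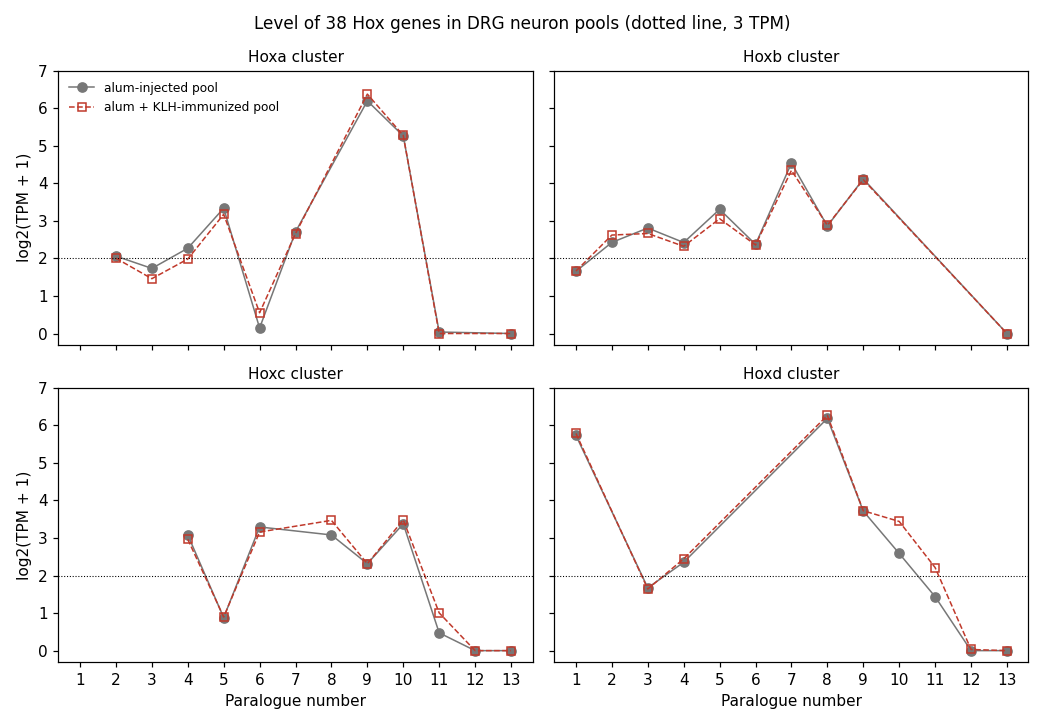
Level of 38 Hox genes, as log2(TPM + 1), against paralogue number in the 4 clusters. Grey circles are the alum-injected pool, red squares the alum + KLH-immunized pool, 1 library each, and the dotted line marks 3 TPM. Levels peaked at Hoxa9, Hoxb7, Hoxd1 and Hoxd8 and fell to 0 or near 0 in groups 12 and 13, and the pools lie apart mainly at Hoxd10 and Hoxd11.

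By cluster, the Hoxd genes (chr2:74668225-74765142, mm10) gave 149.2 and 162.5 TPM, or 37.4% and 38.9% of all Hox TPM. The Hoxa genes (chr6:52155367-52260880) gave 137.0 and 144.9 TPM, or 34.3% and 34.6%. The Hoxb genes (chr11:96194316-96368254) gave 74.9 and 70.0 TPM, or 18.8% and 16.7%, and the Hoxc genes (chr15:102921131-103036856) 38.4 and 40.9 TPM, or 9.60% and 9.77%. The Hoxc cluster was the lowest although 5 of its 9 genes were detected in each pool, because none of them exceeded 10.2 TPM.

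By axial class, the anterior genes (paralogue groups 1 to 3) held 18.9% and 18.4% of the Hox TPM, and 5 of 8 were detected. The central genes (groups 4 to 8) held 41.3% and 39.2%, with 13 of 15 detected in at least one pool, and the posterior genes (groups 9 to 13) 39.8% and 42.3%, with 8 of 16. Most of the anterior sum was Hoxd1 alone. Group 9 was the largest single group at 104.9 and 114.5 TPM, followed by group 8 at 85.6 and 92.4 TPM.

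The order of the levels was nearly the same in the pools. Across all 39 genes Spearman's rho between the pools was 0.982, which describes genes that share libraries and depth and not replicates. Of the 25 neighbouring pairs in the alum-injected order of the detected genes, 17 kept their order in the alum + KLH-immunized pool. Without replicates it could not be said which neighbours differ beyond their error.

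Most Hox genes had 1 transcript row, but 5 had more, and in 4 of these a single row carried most of the TPM. This concerned the 3 highest genes apart from Hoxd1. A Hox gene usually has 2 exons with the homeobox in the last, and its rows often differ in the first exon and hence in the protein start. Transcript models of the same build were matched to the rows to see which exons they hold. For Hoxa10, the row that starts upstream, at position 52240854 of chromosome 6 on the reverse strand, has 94 codons and carried 98.8% and 100% of the TPM (37.0 and 37.8 TPM). The row of the full 416 codons, which starts at 52234939, was at 0.441 and 0 TPM. Both splice into the same last exon, which begins at 52232780, and they are told apart by the sequence before it.

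The last 15 bases of each first exon (lower case) and the first 15 of the shared exon (capitals) show the Hoxa10 junctions that set the rows apart, 5′ to 3′ on the transcript.
Hoxa10, 94 codons, exon end at 52240278: ctgaaatgagtcaagGCAGTTCCAAAGGCG
Hoxa10, 416 codons, exon end at 52233959: agaaggactccctggGCAGTTCCAAAGGCG

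The starts of both rows lie in different sequence, and the 100 bases before each are shown because the TPM fell almost wholly to the upstream start. Capitals mark CG dinucleotides, searched as the letters CG, which read the same on both strands. The sequences are those of RefSeq on the reverse strand of GRCm38, the assembly that mm10 names.
Hoxa10, upstream start, chr6:52240855-52240954: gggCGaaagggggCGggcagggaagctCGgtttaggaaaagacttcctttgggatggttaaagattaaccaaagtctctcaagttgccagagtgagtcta
Hoxa10, downstream start, chr6:52234940-52235039: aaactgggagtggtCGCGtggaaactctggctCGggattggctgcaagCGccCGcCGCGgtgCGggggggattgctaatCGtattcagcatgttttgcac

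The upstream window held 3 CG at a GC content of 50%, and the downstream window 9 CG at 60%. Over all 32851 promoters of the table, 79.3% held at least 1 CG in the same window and the median was 3, and over the 24 Hox windows, which cover 22 genes, the median was 4. The window with fewer CG thus lay before the start that carried the TPM. The assignment of reads to rows was made by the authors' software and could not be repeated here.

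For Hoxd8, the row with an added upstream exon has 107 codons in 557 bases and stood at 64.6 and 69.6 TPM, or 89.9% and 91.6% of the gene. The rows with 288 and 289 codons, in 1758 and 2634 bases, stood at 6.58 and 5.37 TPM and at 0.710 and 1.02 TPM. As TPM divides by length, a short row gains from few reads, and when TPM was multiplied by length the 557-base row held 72.8% and 76.2%. Spread over the longest model, the same reads would give Hoxd8 18.8 and 19.3 TPM and Hoxa10 21.1 and 21.1 TPM. On that scale, chosen after the values were seen, Hoxd8 would stand below Hoxa10, whereas its summed TPM was about that of Hoxa9.

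The Hoxd8 junctions on the forward strand of chromosome 2 are shown to mark what the high row alone holds. Lower case is the exon before and capitals the exon after, and the 288-codon row enters the last exon 3 bases further on.
Hoxd8, 107 codons only, 74704724 to 74705971: tggcccaaggctaagAGACAGCCGATTTTT
Hoxd8, 107 and 289 codons, 74706118 to 74706514: ggatgagaccacaagCAGCTCCTGGTAGAC
Hoxd8, 288 codons, 74706118 to 74706517: ggatgagaccacaagCTCCTGGTAGACGGA

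Among these junctions only the first separates the 107-codon row from the 289-codon row, since both share the last intron. Hoxa9 also had a dominant row, at 69.6 and 79.5 TPM against 2.80 and 2.69 TPM for the other. Its rows were linked to the same transcript model, so their difference in structure is not described here. Hoxb3 had no dominant row, with 3.42 and 2.10 TPM on its 4-exon model and 2.59 and 3.24 TPM on its 2-exon model. Both encode the same 433 codons, and their order differed between the pools.

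For Hoxd11, a gene of the caudal trunk and the limb, all TPM (1.71 and 3.64) lay on a row of 3367 bases with no coding sequence, and the coding row of 336 codons was listed at 0 in each pool. The value of Hoxd11 is therefore that of its noncoding row, as far as reads can be divided between the rows. That row ends at 74687016, beyond the end of the coding row at 74684168. Whether reads of a longer coding transcript fell on it was not tested. Of its stretches of 31 bases, 1.68% also occurred in models of other genes that are linked to RefSeq. The junctions and the 100 bases before each start, on the forward strand of chromosome 2, show how the rows differ. Capitals are the shared exon in the first pair and CG dinucleotides in the second.
Hoxd11, noncoding, exon end at 74679809: gctcgggtcttcacgTGGCCCCCCAGAGGT
Hoxd11, 336 codons, exon end at 74683167: agagcggcggcacagTGGCCCCCCAGAGGT
Hoxd11, noncoding start, chr2:74679458-74679557: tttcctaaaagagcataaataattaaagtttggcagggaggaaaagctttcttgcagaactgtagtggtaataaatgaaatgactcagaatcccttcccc
Hoxd11, coding start, chr2:74682223-74682322: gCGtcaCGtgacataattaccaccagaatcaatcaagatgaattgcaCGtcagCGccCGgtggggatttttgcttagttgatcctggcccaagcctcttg

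The window before the noncoding start held 0 CG and was the only one of the 24 Hox windows without any, and that before the coding start held 5. As for Hoxa10, the window with fewer CG stood before the row that carried the TPM. Of the 22 Hox genes with such windows only these 2 had 2 starts, so no pattern can be read from them. The CG counts describe the letters of the reference and not the state of the DNA in the ganglia.

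**Figure D2:**
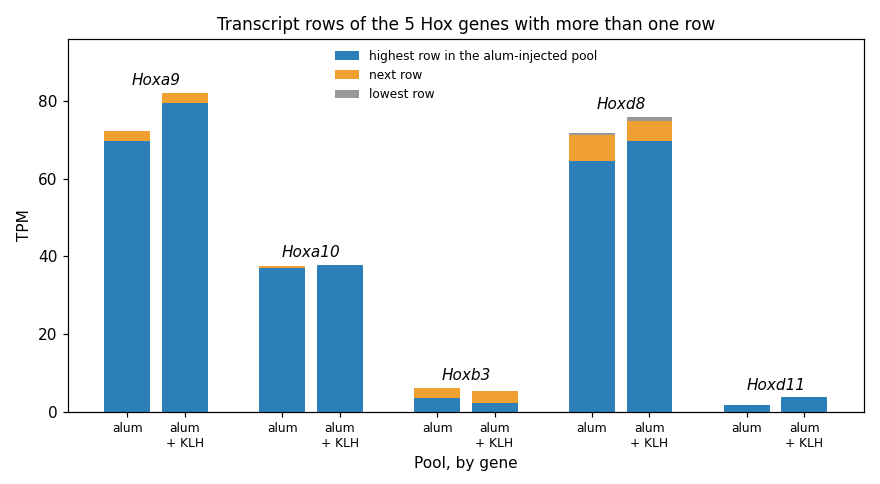
Stacked bars of TPM by transcript row for the 5 Hox genes with more than one row, in the alum-injected (alum) and alum + KLH-immunized (alum + KLH) pools. Blue is the row highest in the alum-injected pool, orange the next and grey the lowest, and the blue row forms nearly the whole bar of Hoxa9, Hoxa10, Hoxd8 and Hoxd11 but not of Hoxb3.

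Between the pools, most Hox genes differed little, as did most genes. Differences are given as the log2 ratio of (TPM + 1), alum + KLH-immunized over alum-injected, for genes that passed 3 TPM in one or both pools. No Hox gene was at least 2-fold apart in either direction, while 0.695% of all 11648 such genes were higher by that much and 0.944% lower. Shares so small would leave few or none of 26 genes called, so the 0 is not particular to Hox genes. With a pseudocount of 0.1 TPM, Hoxd11 passed 2-fold (log2 ratio 1.05). At 1.5-fold, 2 of 26 Hox genes (7.69%) were higher and 0 lower, against 1.00% and 1.55% of all genes. Hoxd11, counted in the 2, passed 3 TPM only in the pool where it was higher, so the filter favoured its direction. The median log2 ratio was 0.0045 for the Hox genes and −0.020 for all genes.

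The 5 genes with the largest ratios were Hoxd10, Hoxd11, Hoxc8, Hoxa4 and Hoxb5. Hoxd10, a gene of the lumbar cord and the limb, was at 5.02 TPM with alum alone and at 9.87 TPM with KLH. This was a log2 ratio of 0.85, or 1.81-fold on TPM + 1, and 4.35 times the SD of 0.20 among the 500 genes closest in level. It was the only Hox gene beyond 2 such SDs. Yet the SD differed between genes of nearly the same level, and was 0.52 for Hoxc4. The mean of the pools was 7.14 TPM for Hoxc4 and 7.44 TPM for Hoxd10. Set against an SD of 0.52, the ratio of Hoxd10 would lie within 2 SDs, so its multiple depends on which genes are closest. The model of the Hoxd10 row shared no stretch of 31 bases with models of other genes that are linked to RefSeq. Hoxd11, its neighbour in the cluster, stood at 1.71 and 3.64 TPM, a log2 ratio of 0.78 that was smaller than the SD of 0.87 at its level.

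Hoxc8 stood at 7.47 and 10.1 TPM, with a log2 ratio of 0.39 against an SD of 0.24. Hoxa4, a cervical and upper thoracic gene, stood at 3.83 and 2.96 TPM, and its ratio of −0.29 was within the SD of 0.52. For Hoxb5, which has a like domain, the levels were 8.91 and 7.33 TPM and the ratio of −0.25 was within an SD of 0.52. Besides Hoxd10 and Hoxc8, only Hoxa9 (0.18, SD 0.14) and Hoxb7 (−0.20, SD 0.18) lay beyond 1 SD. These SDs describe genes of a like level in the same libraries and are not replicate errors. They also differed between Hox genes of like level, as for Hoxc8 (0.24) and Hoxb5 (0.52).

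The genes beside Hoxd10 showed no like difference except for Hoxd11. The noncoding row of Hoxd11 ends at 74687016, inside the RefSeq gene Hoxd10 (chr2:74684273-74695106). The model matched to the Hoxd10 row starts further on, at 74691924. Whether the differences of Hoxd10 and Hoxd11 are separate was not tested. Hoxd9 was at 12.2 TPM in each pool, Hoxd12 at 0 and 0.0217 TPM, and Mtx2, a mitochondrial gene that flanks the cluster, at 282.1 and 282.4 TPM. The other members of group 10, Hoxa10 and Hoxc10, gave log2 ratios of 0.01 and 0.10. Fibroblast markers, listed because limb and body wall mesenchyme also express posterior Hox genes, summed to 86.2 and 86.6 TPM, with 3 of 7 above 3 TPM. The matrix genes Dcn, Lum and Col1a2 were those above it, at 63.8 and 62.6 TPM, 11.2 and 13.2 TPM, and 7.57 and 7.26 TPM. Lum was thus higher in the same pool as Hoxd10, by 0.22 on the log2 scale, and its part in the difference was not tested. The defining genes Pdgfra, Twist1 and Prrx1 stayed below 3 TPM in each pool. Of 10 muscle and bone genes only Runx2 exceeded 3 TPM, at 8.65 and 8.53 TPM.

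**Figure D3:**
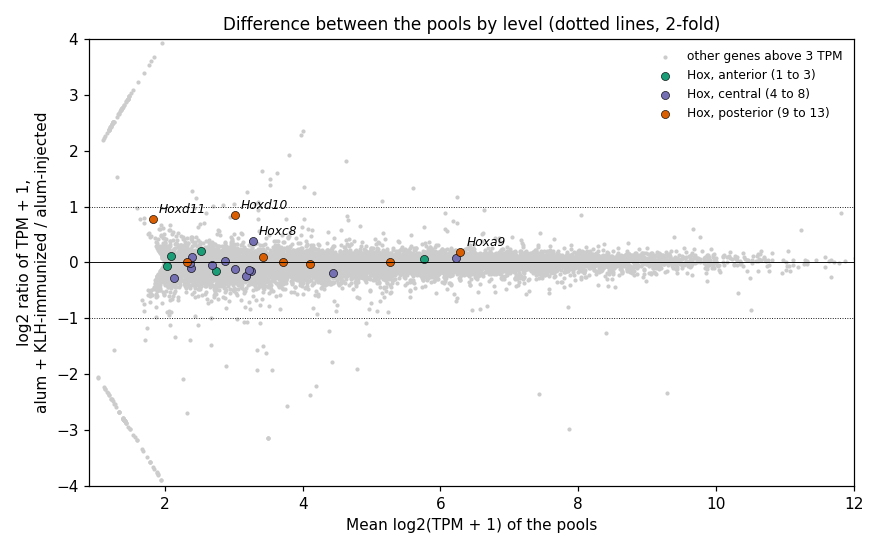
Log2 ratio of TPM + 1 between the pools (alum + KLH-immunized over alum-injected) against the mean log2(TPM + 1), for the 11648 genes that passed 3 TPM in one or both pools. Grey points are other genes, coloured points the 26 detected Hox genes by axial class, dotted lines mark 2-fold, and 24 genes fall outside the axes. Hoxd10 (0.85) and Hoxd11 (0.78) lie nearest to the upper line, and most other Hox genes lie within the grey band.

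The small ratios fell by paralogue number in a way noticed only after the values were seen. Of the 11 detected genes of groups 3 to 7, 1 was higher in the alum + KLH-immunized pool (Hoxd4) and 10 were lower, while of the 11 of groups 8 to 11, 10 were higher and 1 lower (Hoxb9), and 43.6% of all genes were higher. Rescaled by the median ratio of all genes, the counts higher were 2 of 11 and 10 of 11, beside 50.2% of all genes, and scaled to Hprt, a housekeeping gene, 1 of 11 and 5 of 11, beside 21.0%. A scaling shifts every log2 ratio by about the same amount, so it moves ratios near 0 across it but leaves the distance between the groups of genes nearly as it was. Most of these ratios were smaller than the SD of genes at their level, and no test was made. Without the 3 TPM filter, 3 of 15 and 11 of 13 were higher. Hoxa4 and Hoxd11 each passed that filter only in the pool where they were higher. Groups 1 and 2 are in neither count, and had log2 ratios of 0.05 for Hoxd1, 0.20 for Hoxb2 and −0.06 for Hoxa2. The ratios thus did not rise steadily with paralogue number. The summed TPM of groups 3 to 7 was lower in the alum + KLH-immunized pool and that of groups 8 to 11 higher, with log2 ratios from −0.20 for group 5 to 0.85 for group 11. Group 11 rested on Hoxd11 and Hoxc11, both below 4 TPM. The bounds of groups 3 to 7 and 8 to 11 were drawn from these same ratios. By the axial classes used above, 4 of 13 central and 7 of 8 posterior genes were higher. Scaled to Hprt, 2 of 13 and 4 of 8 were.

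By cluster, 6 of 6 detected Hoxd genes were higher in the alum + KLH-immunized pool, which stayed 6 of 6 when rescaled by the median ratio and became 3 of 6 when scaled to Hprt. Hoxd1, Hoxd8 and Hoxd9 changed sides in the latter, with TPM-scaled ratios of 0.05, 0.08 and 0.01. Hoxd11 is counted in the 6 although it passed 3 TPM only in the alum + KLH-immunized pool. In the Hoxb cluster 2 of 8 were higher, in the Hoxa cluster 3 of 7 and in the Hoxc cluster 3 of 5, and scaled to Hprt 1 of 8, 2 of 7 and 2 of 5. Over all 26 Hox genes 14 were higher (53.8%), and 8 (30.8%) when scaled to Hprt, next to 43.6% and 21.0% of all genes.

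**Figure D4:**
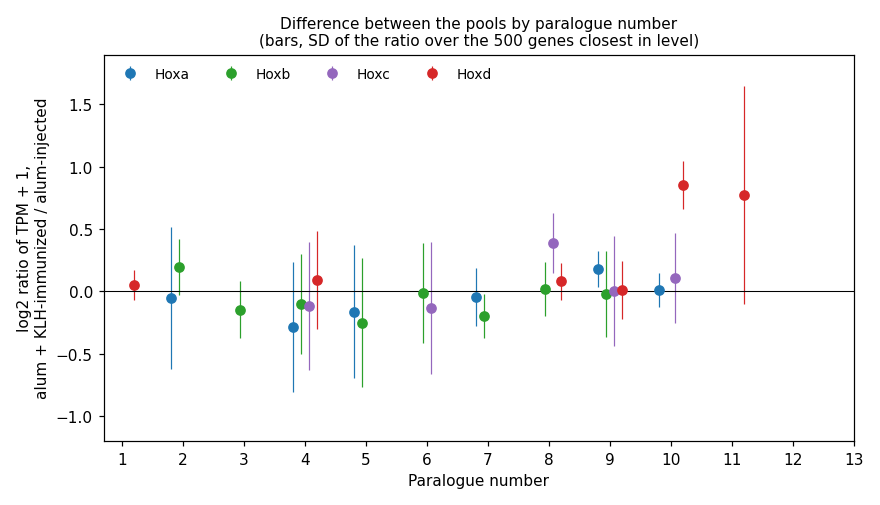
Log2 ratio of TPM + 1 between the pools (alum + KLH-immunized over alum-injected) by paralogue number for 25 detected Hox genes, coloured by cluster. Bars are the SD of the ratio over the 500 genes closest in level, not replicate error. Groups 3 to 7 lie mostly below 0, and 10 of 11 genes of groups 8 to 11 above it (5 of 11 when scaled to Hprt). This split was chosen after the values were seen. The bar of Hoxd10 is the only one far from 0.

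Hox proteins bind DNA together with TALE homeodomain cofactors of the PBC (Pbx) and MEIS/PREP (Meis, Pknox) families, which sharpen their choice of sites. Of the 9 cofactor genes 7 exceeded 3 TPM in each pool, where 46.9% and 46.3% of all genes did. Among the 7, 0 were 1.5-fold apart in either direction, beside 1.00% of all genes higher and 1.55% lower. Pknox2, which encodes PREP2, was the highest at 34.7 and 32.5 TPM. Pbx2 and Pbx3 were at 30.1 and 27.1 TPM and at 21.1 and 20.7 TPM. Meis2 was at 27.0 and 27.2 TPM, whereas Meis1 gave 5.12 and 4.32 TPM and Pknox1 8.08 and 7.01 TPM. Pbx4 and Meis3 were at or below 2.05 TPM. Of the 7 genes 6 were lower in the alum + KLH-immunized pool (7 when scaled to Hprt), next to 56.4% and 79.0% of all genes, with a median log2 ratio of −0.09 beside −0.020 for all genes, and single values from −0.20 to 0.01. The median of the 9 genes was 21.1 and 20.7 TPM, near the level of Hoxb7.

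The Hox clusters also hold noncoding RNA genes, many of them antisense to Hox genes or between them. The gene annotation placed 32 further genes within the clusters, 18 of which had rows in the files, 6 as miRNA precursors and 12 as other RNAs. Among the 12, 5 and 4 exceeded 3 TPM, 4 of them in each pool. Mira, a noncoding RNA beside Hoxa7, was the highest at 58.7 and 61.3 TPM. Its interval (chr6:52214491-52215288) lies outside the RefSeq gene Hoxa7 (chr6:52215623-52218573), but 791 of its 798 bases lie inside the last exon of the Hoxa7 model in GENCODE (chr6:52214498-52216030). The level of Mira was more than 10 times that of Hoxa7, and which of them the reads came from was not tested.

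Hotairm1, a noncoding RNA of the Hoxa cluster, stood at 13.4 and 20.5 TPM, a log2 ratio of 0.57 that is just under 1.5-fold. Its 253-base row shared no 31-base stretch with models of other genes that are linked to RefSeq. A row so short turns few fragments into several TPM, and the number of fragments behind this difference is not known. Haglr, which starts next to Hoxd1 on the other strand, was at 6.95 and 7.08 TPM, and Hoxaas2, antisense to Hoxa3, at 3.36 and 4.07 TPM. Gm53, a noncoding gene of the Hoxb cluster, was at 3.27 and 2.08 TPM, and Hotair, the noncoding RNA of the Hoxc cluster, at 0.261 and 0.723 TPM. Mira and Haglr were not among the neighbour genes listed at first and were added by their position. Overlap on opposite strands was largest between Hoxa11os and Hoxa11 (29.7% and 23.8% of their 31-base stretches) and between Hoxaas2 and Hoxa3 (23.4% and 16.4%). Of these 4 genes Hoxaas2 alone exceeded 3 TPM, and how far its level rests on reads of Hoxa3 was not tested.

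**Figure D5:**
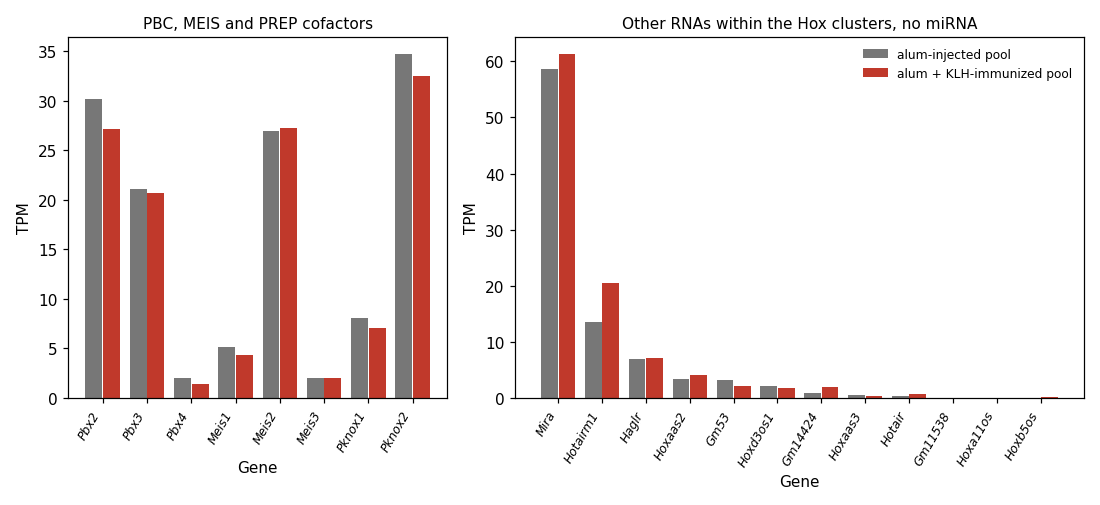
TPM in the alum-injected (grey) and alum + KLH-immunized (red) pools of 8 PBC and MEIS/PREP cofactor genes (left) and of the 12 other RNAs within the Hox clusters apart from miRNAs (right), 1 library per bar. Mira (58.7 and 61.3 TPM) and Hotairm1 (13.4 and 20.5 TPM) exceed the other cluster RNAs.

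The clusters encode the miR-10 and miR-196 families, whose known targets include Hox mRNAs. Their mature sequences are shown, from RefSeq, because the seed (bases 2 to 8, in capitals) groups them into 2 families, ACCCUGU and AGGUAGU.
miR-10a-5p, near Hoxb4, chr11:96317186-96317208: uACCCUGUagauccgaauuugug
miR-10b-5p, within the Hoxd4 gene, chr2:74726074-74726096: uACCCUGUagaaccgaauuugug
miR-196a-5p, near Hoxb9, chr11:96265187-96265208: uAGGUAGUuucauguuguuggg
miR-196b-5p, between Hoxa9 and Hoxa10, chr6:52230129-52230150: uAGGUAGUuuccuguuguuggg

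An mRNA library does not hold mature miRNAs, and only rows of the hairpin precursors, 68 to 110 bases long, were present. The Mir10b row read 6.16 and 17.7 TPM, and Mir10a 0 and 2.76 TPM. The Mir196a-1 row read 3.69 and 0 TPM and Mir196b 0 and 4.35 TPM, while the Mir196a-2 and Mir615 rows were at 0 in each pool. Rows so short turn few fragments into several TPM, so these values give no order between the pools. Mir10b lies within the gene Hoxd4, whose own level was 4.11 and 4.45 TPM.

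Factors of other axial levels were mostly low. Of the 6 ParaHox and Cdx genes, homeobox relatives that act in the gut and the early posterior embryo, 5 were at 0 in each pool and the sixth reached 0.0357 TPM. Of 9 cranial and hindbrain factors 2 exceeded 3 TPM. Egr2, which marks hindbrain segments in the embryo and myelinating Schwann cells in nerves, was at 22.8 and 25.5 TPM. The 7 below that level, among them Otx2 at 0, stayed at or below 1.17 TPM.

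Glial RNA was present beside that of neurons, so a Hox level here is that of the whole preparation. Schwann cell markers exceeded 3 TPM for 5 of 7 genes and satellite glia markers for 5 of 5, with sums of 1510 and 1445 TPM and of 1442 and 1328 TPM. Macrophage markers did so for 0 of 5, and endothelial and mural markers for 2 of 7. These 2 were Rgs5 at 172.2 and 162.4 TPM and Cdh5 at 3.79 and 3.15 TPM. Spinal cord markers did so for 2 of 8, Aqp4 at 14.8 and 14.9 TPM and Gfap at 5.28 and 4.84 TPM. The motor neuron gene Mnx1 was at 0 in each pool. The part of glial, endothelial or mural cells in the level of any Hox gene was not tested.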

How the data were processed

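DRG neurons of 10 mice per group were pooled into 1 library each. The authors prepared strand-specific mRNA libraries, trimmed the read pairs with cutadapt and quantified annotated mouse transcripts with kallisto (mm10 in the submitters' notes, versions not given in the sources used here). The authors deposited TPM for each RefSeq transcript without read counts, so depth is unknown and no counting interval was formed. kallisto splits reads among overlapping rows, which affects rows of one gene most.

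From these values, TPM was summed per symbol, and 3 TPM was the detection level. Ratios used a pseudocount of 1 TPM and were set beside the SD over the 500 genes closest in mean log2(TPM + 1). The script was tested on simulated data. Calls were 2-fold and 1.5-fold, without a test. The members, lists and rules were chosen with earlier results of these data known. Named were all 39 Hox genes, the 5 with the largest ratio, and the cofactor, cluster and cranial genes above 3 TPM, by value or by count and range. Transcript models came from GENCODE M21 and positions from RefSeq, both on GRCm38, and rows were matched by identifier. Python 3.11.15, numpy 2.4.6, pandas 2.3.3 and matplotlib 3.10.9 were used. Protein sequences were not used here, and values of a few single genes are not reported here or drawn in the plots by gene. Alternatives were other thresholds, pseudocounts, filters and scalings, the highest row per gene and coding rows only.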

Additional observations from a re-analysis of the deposited data

How the results depend on the processing

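No paired analysis was possible because there was 1 library per group, and leaving out a library was not possible for the same reason. At a threshold of 10 TPM the detected Hox genes fell from 25 in each pool to 7 in the alum-injected and 9 in the alum + KLH-immunized pool, while thresholds of 1 and 0 TPM, the highest row and coding rows gave 24 to 33. With a pseudocount of 0.1 TPM, 1 Hox gene (Hoxd11, log2 ratio 1.05) was at least 2-fold higher, against 0. With the filter raised to 10 TPM, 0 rather than 2 were at least 1.5-fold higher, since Hoxd10 and Hoxd11 both fell below that level. With the highest row of each gene, the Hoxc share of Hox TPM moved from 9.60% to 9.93% in the alum-injected and from 9.77% to 10.0% in the alum + KLH-immunized pool, more than it differed between the pools. The log2 ratio of Hoxd10 ranged from 0.78 to 0.96 and that of Hoxc8 from 0.31 to 0.43 over the alternatives. Of 165 ratios of single Hox genes under the alternatives, 158 kept their sign and 7 changed it, 6 of them when scaled to Hprt. Scaling to Hprt, whose ratio between the pools was 0.08 on the log2 scale, lowered the median of all genes from −0.020 to −0.10 and that of the Hox genes from 0.0045 to −0.07. Spreading reads over the longest model was added after the values were seen. Unknown depth and the lack of replicates limit every difference between the pools, and low rows most.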

Other observations

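Chromatin regulators that keep Hox clusters silent or active were measured in both preparations. Of 26 Polycomb genes, which encode the repressive complexes that hold Hox genes silent, 20 and 19 exceeded 3 TPM, where 46.9% and 46.3% of all genes did. Of the 20, 0 were 1.5-fold apart, beside 1.00% of all genes higher and 1.55% lower. Among them the histone methyltransferase Ezh1 stood at 35.0 and 33.2 TPM against 4.89 and 4.59 TPM for Ezh2, its counterpart in dividing cells. Suz12 and Eed, the partners of both, stood at 90.5 and 93.6 TPM and at 21.4 and 23.7 TPM. The median log2 ratio of the Polycomb list was −0.04, beside −0.020 for all genes.

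Of 10 Trithorax and demethylase genes, which act in the opposite sense or shape cluster boundaries, 9 and 8 exceeded 3 TPM. Over all genes, 46.9% and 46.3% did so. Kmt2a, a methyltransferase that keeps Hox genes active, was at 13.5 and 12.6 TPM, and Ctcf, which binds cluster boundaries, at 35.3 and 33.1 TPM. Kdm6b, an H3K27 demethylase, was at 4.08 and 2.52 TPM, a log2 ratio of −0.53 that was the lowest of the list. It passed 3 TPM only in the alum-injected pool, where it was higher, so the filter favoured its direction. No SD of genes at its level was computed. Of the 9 genes that passed in one or both pools, 0 were 1.5-fold apart, beside 1.00% of all genes higher and 1.55% lower.

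Of 17 genes of axial signals and the retinoid pathway, 8 and 7 exceeded 3 TPM. This is near the share of all genes that did, 46.9% and 46.3%. Gdf11, a ligand that sets the onset of posterior Hox genes in the embryo, was at 19.3 and 17.3 TPM, and its receptors Acvr2a and Tgfbr1 at 37.7 and 39.6 TPM and at 27.9 and 30.5 TPM. Crabp2, which carries retinoic acid to the nucleus, was at 8.95 and 9.87 TPM, and the retinoic acid receptor gene Rarb at 3.61 and 3.67 TPM.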
